A study of Mus musculus with 4 samples.

Results

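The heavy chain variable region was followed through 70 oligonucleotide probes of a mouse expression array. They were all the non-control probes annotated in the mm8 build to the window of chromosome 12 that holds the V segments, where their coordinates ran between 113939237 and 116499060, out of 41174 non-control probes on the array. The rule that chose them uses position and no signal, although it was set with earlier results of these data known. Of the 70, 57 were described as heavy chain variable segments or heavy chain mRNAs, 8 carried no named product, and 5 belonged to other genes that lie within the region.

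The series compared 2 B-cell lymphoma lines with 2 samples of B220+ splenocytes, each on 1 one-colour array. Lymphoma lines 1 and 2 were established independently from mice transgenic for dopamine receptor 3, and their labels give the strain as C57BL/6N and the sex as female. The promoter that drove the transgene and the age of the mice are not given in the sources used here. The splenocytes, spleen cells carrying the B-cell form of CD45 known as B220, came from female C57BL/6N mice, and the labels do not say whether the samples came from separate animals. All p-values therefore reflect only how far these particular samples differed, and part of that may be technical. Each line was measured once.

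In a developing B cell, the RAG recombinase joins one variable (V), one diversity (D) and one joining (J) segment of the heavy chain locus on chromosome 12, and the joined exon is transcribed together with a constant region. A normal spleen holds many B cells that have chosen different V segments, while the descendants of a single B cell share one rearranged V exon. The V segments fall into families by sequence, of which IGHV1, also called J558, is the largest in C57BL/6 mice and lies mainly in the part of the cluster far from the D and J segments. Families such as IGHV5 and IGHV2 lie near the D segments, at the low-coordinate end of the region here. Members of one family share much of their sequence, so one probe can take up transcripts of related segments, and signals of different probes are not set against each other here.

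The values are the scanner software's processed signals, which are background-corrected intensities. The 75th percentile of processed signal was 1122 in line 1, 1315 in line 2, 1078 in splenocyte 1 and 514 in splenocyte 2, and each array was divided by its own before comparison (scaled signal below). Between 24884 and 27227 probes per array were well above background by the scanner's flag, and no non-control spot was saturated. Within an array, repeated spots of one probe had a median SD of 0.061 to 0.070 on the log2 scale over the 245 probes spotted 5 times or more, while each member had 1 spot. The scanner's own error was at most 22.4% of the signal for members above background. Of the 7 B cell markers measured, all were well above background on all 4 arrays, and 4 were lower in the lines. The other 3, among them Ms4a1, which encodes CD20, did not pass the test. Among the 8 T cell markers, 3 were lower in the lines and 2 were higher, Cd3g and Cd5, and their summed scaled signal was 10.8 and 12.3 in lines 1 and 2, against 3.11 and 2.55 in the splenocyte samples. Cd8a and Thy1 of that list were below background in both lines. The myeloid markers were lower for 7 of 8, with a summed scaled signal of 0.122 and 0.130 in the lines, against 13.9 and 8.88 in the splenocytes. Lyz1, Lyz2 and S100a8 were below background in both lines. Of the 7 plasma cell markers, 3 were higher and 1 was lower, and 1 of 2 tested erythroid markers was lower. The part of these other cells in the results below was not tested, and fewer cells of a type cannot be told apart from less RNA per cell.

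In both lymphoma lines most of the variable region was below or near background, and a small set of probes was very bright. Of the 70 members, 65 were well above background in both splenocyte samples and were tested with limma, and the remaining 5 were dim on all 4 arrays. Of the 65 tested, 59 were lower and 6 were higher in the lines at a Benjamini-Hochberg adjusted p under 0.05. Over all 27312 tested probes, 32.5% were called lower and 32.4% higher. These shares depend on the scaling: 49.9% of all called probes were higher with the 75th percentile, and 64.0% with the array median, whereas the members' counts stayed at 59 and 6.

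Of the lower members, 45 were above background in both splenocyte samples and in neither line, so they entered the test only through the group where they were high and had to differ. The same state, bright in both splenocyte samples and in neither line, held for 5.71% of the 24620 probes that were well above background in both splenocyte samples. Of the 20 members well above background in at least 1 line, 14 were lower and 6 higher. Of the 25905 tested probes of that kind, 28.9% and 34.2% were called lower and higher. Among these 20 members, 5 were above background in only 1 line, so they too needed the splenocyte arrays to enter the test. The other 15 were above background in both lines and did not, and of these 9 were lower and 6 higher. The median log2 difference of the tested members was -9.16, and -7.64 when dim signals were counted at the lowest signal that was well above background on their array. Over all tested probes these medians were -0.01 and -0.03.

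Taken line by line, with no test, a member counted as 4-fold higher when its scaled signal was at least 4 times the splenocyte mean on the log scale, above both splenocyte samples and well above background. By this rule 5 members were higher in line 1 (17 members were well above background there) and 4 in line 2 (of 18). Of all probes well above background in the line, 11.4% met the rule in line 1 and 10.5% in line 2. Of the 65 members well above background in both splenocyte samples, 58 were at least 4-fold lower in line 1 and 57 in line 2, against 16.9% and 14.1% of all such probes. In all, 57 members were lower in both lines out of 58 lower in either, and 4 were higher in both out of 5 higher in either.

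Both probes described as IGHV5 segments were higher in the lines, and no other named family had a member called higher. The other heavy chain members called higher name no family. The IGHV5-17 probe (A_51_P275642, chr12:114307146-114307205), whose name column reads Ighg, had a scaled signal of 76.7 in line 1 and 119 in line 2, against 5.63 and 11.6 in splenocytes 1 and 2. Its processed signals were 86030 and 156031 in the lines, against 6068 and 5945 in the splenocytes. Both lines lay above both splenocyte samples, by 3.56 on the log2 scale (SE 0.43, limma adjusted p = 0.00283, n = 2 arrays per group).

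The IGHV5S24 probe (A_52_P426100, chr12:114210252-114210311) was higher as well. Its scaled signal was 57.0 and 93.2 in lines 1 and 2, against 4.07 and 8.12 in splenocytes 1 and 2. The groups did not overlap, and the log2 difference was 3.66 (SE 0.43, limma adjusted p = 0.00266).

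A further pair of bright probes carry no segment name and lie on either side of a dark one, closer to the low-coordinate end. The probe A_51_P391836 (chr12:114045298-114045356) was designed on the heavy chain cDNA BC004786. It read a scaled signal of 83.1 and 124 in lines 1 and 2, against 4.89 and 13.0 in splenocytes 1 and 2, a log2 difference of 3.67 (SE 0.53, limma adjusted p = 0.00459). The probe A_52_P562911 (chr12:114073386-114073439) was designed on M19902, a rearranged gamma-chain mRNA. Its scaled signal was 60.3 and 90.8 in the lines, against 1.76 and 5.12 in the splenocytes, and its log2 difference of 4.62 (SE 0.57, limma adjusted p = 0.00299) was the largest increase among the members. For both probes each line lay above each splenocyte sample. Between them lies the probe A_51_P103945, from the monoclonal antibody mRNA D17387, with processed signals of 1.91 and 2.52 in the lines, neither well above background, against 307 and 322 in the splenocytes. That is at least 53.8-fold lower in the lines (limma adjusted p = 0.000404). Here and below, a p beside such a bound is from the signals as read, dim ones included, and does not test the bound.

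The neighbours on both flanks were lower in the lines. On the low-coordinate side, the IGHV2-2 probe (A_51_P367462, chr12:114036075-114036134) had processed signals of 12.4 and 20.9 in lines 1 and 2, against 494 and 532 in the splenocytes. Both line signals were well above background. It fell by 5.70 on the log2 scale (SE 0.45, limma adjusted p = 0.001) and was the only IGHV2 member. On the other side, the IGHV7-1 probe (A_52_P160554, chr12:114344347-114344406) was not well above background in either line, and reached only 20.4 and 11.2 in the splenocytes. It was at least 2.58-fold lower in the lines (limma adjusted p = 0.000399). The members called higher that name a heavy chain therefore lay at 4 positions between 114045298 and 114307205, with probes called lower between and beside them, plus 1 position far from them.

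The heavy chain probe at that distant position was A_52_P544090 (chr12:115641459-115641518), from the variable region mRNA AF218659, in the stretch of the cluster where IGHV1 probes predominate. Its scaled signal was 18.3 and 31.6 in lines 1 and 2, against 7.82 and 11.96 in splenocytes 1 and 2. The lines lay above the splenocytes by 1.31 on the log2 scale (SE 0.36, limma adjusted p = 0.0317). The call was lost without line 2 (adjusted p = 0.0900), without splenocyte 1 (adjusted p = 0.116), with quantile normalization (adjusted p = 0.0630) and with no filter on dim probes (adjusted p = 0.0662).

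The AF218659 probe shares 33 bases of its coordinates with the next member, A_51_P272341 (chr12:115641486-115641545), which RefSeq assigns to Ighv1-54. There the direction was the opposite. Its processed signal was 16.4 in line 1 and 7.34 in line 2, the last not well above background, against 13312 and 10884 in the splenocytes. It was 1103-fold lower in line 1 and at least 1963-fold lower in line 2 (limma adjusted p = 0.000392 for both lines together).

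The sixth member called higher was not an immunoglobulin probe. A_52_P227746 (chr12:116107090-116107149) was described as similar to the chromatin protein HMG-2, and RefSeq names the locus Gm6105 and lists it as a pseudogene. Its scaled signal was 20.2 and 13.8 in lines 1 and 2, against 5.07 and 4.15 in splenocytes 1 and 2, a log2 difference of 1.86 (SE 0.25, limma adjusted p = 0.00375). Its coordinates ran in ascending order, as did those of the other 4 non-immunoglobulin members, whereas the 65 other members ran in descending order. Hmgb2 itself, the gene of HMG-2, was higher too, with a log2 difference of 0.75 (SE 0.18, limma adjusted p = 0.0202).

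Every member named as IGHV1 was lower in the lines. The AF218659 probe, called higher, names no family and is not among them, although its coordinates overlap those of an IGHV1 member. The family was named for 25 members, either as an IMGT segment, as J558 or VH558, or through the gene name or RefSeq. All 25 were tested and called lower, 17 of them dark in both lines and 4 in 1 line. For the 17 the lower bounds ran between 42.3-fold and 3495-fold with a median of 486-fold. All 25 lay between 114917121 and 116447895, which is the high-coordinate part of the region.

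One of these was A_52_P139027 (chr12:115655885-115655944), from U39781, a J558-positive IgM heavy chain mRNA of a hybridoma. Its processed signals were 2.15 and 2.93 in lines 1 and 2, neither well above background, against 24848 and 16770 in splenocytes 1 and 2. The lines were at least 3495-fold lower (limma adjusted p = 9.47e-05). The IGHV1S12 probe (A_51_P103364, chr12:116447836-116447895) had processed signals of 2.84 and 5.14 in the lines, against 13143 and 8940 in the splenocytes, at least 1856-fold lower (limma adjusted p = 0.000123). The splenocyte samples and the lines did not overlap for any of the 59 members called lower, of which the 45 dark in both lines had to differ. The share without overlap among all called probes was not counted, so this is not read as a trait of the members.

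A few IGHV1 probes kept a weak signal in both lines. IGHV1-7 (A_51_P288295) had processed signals of 9.55 and 12.01 in lines 1 and 2, against 8069 and 6525 in the splenocytes, which is 1106-fold lower (limma adjusted p = 0.000152). IGHV1-56 (A_52_P559566) had 14.6 and 22.4 in the lines, against 2717 and 1803 in the splenocytes, which is 200-fold lower (limma adjusted p = 0.000175). LOC639988 (A_51_P442889), which begins 134 bases before it and is described as similar to VH558, had 47.1 and 60.5 in the lines, against 2814 and 2236 in the splenocytes, 76.7-fold lower (limma adjusted p = 0.000317). The fourth was the AK007163 probe A_51_P476757, with 35.0 and 43.0 in the lines, against 12689 and 10389 in the splenocytes, a 483-fold difference (limma adjusted p = 0.00018). All of these line signals were well above background on their arrays, and all lay far below the splenocyte signals of the same probe.

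Probes annotated to the same mRNA were lower together for the mRNAs with several probes here. The AK007163 mRNA, a J558 transcript, has 3 probes. A_51_P476757 overlaps A_52_P686392 by 10 bases, and that one overlaps A_52_P151887 by 57. The last 2 were not well above background in either line, and were at least 564-fold and 521-fold lower. On the AY090902 mRNA, from an IgM antibody, the 2 probes A_51_P346681 and A_51_P428056 were at least 548-fold and 257-fold lower. The 2 probes of M20831, the mRNA of an anti-DNA antibody, were A_52_P532769, at least 717-fold lower, and A_51_P128248, with signals of 10.3 and 24.9 in the lines, against 10237 and 6277 in the splenocytes, 818-fold lower. Overlapping probes do not count as independent readings of the locus. The M20831 probes are placed far apart, with coordinates that begin at 115130578 and 115299002, and whether both read 1 transcript was not tested.

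The members named as IGHV3, IGHV6, IGHV8 and IGHV14 were not well above background in either line. IGHV3-6 and IGHV3-8 (A_52_P311042 and A_52_P572554) were at least 61.5-fold and 52.0-fold lower. Both probes named Ighv6-6 (A_51_P424199 and A_52_P382676) were at least 43.9-fold and 6.44-fold lower, and the splenocyte signals of A_52_P382676 were only 54.9 and 25.7. IGHV14-4 (A_52_P53507) was at least 112-fold lower and IGHV8-12 (A_52_P90157) at least 102-fold lower. The limma adjusted p of these 6 ran between 9.47e-05 and 0.000739. The other IGHV8 probe, for Ighv8-2, was dim on all 4 arrays and untested.

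A further 21 heavy chain members name no family. Of these, 3 were the bright BC004786, M19902 and AF218659 probes above, and the other 18 were lower. In this group the AB070552 probe (A_52_P638100, chr12:116250434-116250493), from a V102-D-J-IgG1 mRNA, had processed signals of 2.08 and 2.75 in lines 1 and 2, against 16214 and 10615 in splenocytes 1 and 2. It was at least 2246-fold lower (limma adjusted p = 9.47e-05).

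The AB017433 probe (A_51_P203148), from an anti-IL-18 antibody, had 2.05 and 2.79 in the lines, against 13317 and 8966 in the splenocytes, at least 1871-fold lower. The AB069910 probe (A_52_P47786), from a V303-D-J-C mu mRNA, had 2.34 and 3.21 in the lines, against 12197 and 6498 in the splenocytes, at least 1524-fold lower. Both had a limma adjusted p of 9.47e-05. The NP614311 probe (A_52_P490470), from a heavy chain VDJ region, had 6.84 and 8.40 in the lines, against 19369 and 13420 in the splenocytes, at least 2760-fold lower with the same adjusted p.

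Not all of these probes went dark. The AB070542 probe (A_52_P174000, chr12:115593283-115593342), from a VH186.2-D-J-IgG1 mRNA, kept processed signals of 35.9 and 44.5 in lines 1 and 2, against 23600 and 15734 in the splenocytes, and was 787-fold lower (limma adjusted p = 0.000106). VH186.2 is the segment used by antibodies of C57BL/6 mice to the hapten nitrophenyl. The AY182513 probe (A_52_P469009) had 27.8 and 51.9 in the lines, against 13985 and 8857 in the splenocytes, 478-fold lower (limma adjusted p = 0.00018). These signals were well above background in both lines and far below the splenocytes.

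Of the 8 members with no named product, 6 were tested and lower, and all 8 were dark in both lines. The probe NAP107273-1 (A_52_P565106, chr12:116368070-116368129) had processed signals of 2.96 and 5.02 in lines 1 and 2, against 21651 and 15886 in the splenocytes. It was at least 3175-fold lower (limma adjusted p = 0.000117). It is described in the files as unknown.

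Of the other genes within the region besides the HMG-2-like one, the ADAM genes were lower in the lines. Adam6b (listed as 4930523C11Rik) and Adam6a are testis genes of the ADAM family that lie between the V and D segments, at the low-coordinate end. The Adam6b probe had processed signals of 39.4 and 52.7 in lines 1 and 2, against 97.9 and 61.3 in splenocytes 1 and 2, and was 2.78-fold lower after scaling (limma adjusted p = 0.00397). The Adam6a probe was not well above background in either line, had 21.8 and 8.09 in the splenocytes, and was at least 2.27-fold lower (limma adjusted p = 0.00048). The probes of AK079758 and of the zinc finger gene Zfp386 were dim on all 4 arrays.

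By the 4-fold rule with the brighter line well above background, 3 members differed between the lines, out of 20 members well above background in at least 1 line. That is 15%, against 2.04% of all such probes. All 3 were brighter in line 2, and all were below background in line 1, so their differences rest on a dim value. The AY172876 probe (A_52_P565636, chr12:115344023-115344082) had processed signals of 4.56 in line 1 and 43.0 in line 2, against 12325 and 5334 in the splenocytes. IGHV1S4 (A_52_P259779) had 1.84 in line 1 and 15.1 in line 2, against 2486 and 2254 in the splenocytes. Ighv1-66 (A_52_P387844) had 2.04 in line 1 and 18.8 in line 2, against 47.2 and 36.8 in the splenocytes. When dim signals were counted at the lowest signal well above background, only 1 of the 3, AY172876, still differed 4-fold, and with normexp background correction 0 of the 3 did.

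Each of the 3 was lower in the lines than in the splenocytes by limma. The adjusted p was 0.00186 for AY172876 and 0.00197 for IGHV1S4. For Ighv1-66 it was 0.0402 with a log2 difference of -3.46 (SE 1.04), and that call was lost without splenocyte 1 (adjusted p = 0.0779) or splenocyte 2 (adjusted p = 0.125), with quantile normalization (adjusted p = 0.0553) and with no filter on dim probes (adjusted p = 0.0752). With normexp its log2 difference was -1.14 and without line 1 it was -1.97. The Ighv1-77 and NAP019878-001 probes also had large differences between the lines, but neither was above background in either line, so no order was read. Ighv1-77 was at least 1082-fold lower in the lines than in the splenocytes (limma adjusted p = 0.000761), and NAP019878-001 was dim on all 4 arrays.

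Among the 15 members above background in both lines, 14 read higher in line 2 than in line 1 after scaling. Of all probes above background in both lines, 48.4% did. The exception was the HMG-2-like probe. The gaps between line 1 and line 2 ran between -1.04 and 0.55 on the log2 scale, with a median size of 0.55, against 0.22 for all probes above background in both. With 1 array per line these gaps have no test.

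The splenocyte samples differed from each other more at these probes than at the array as a whole. Of the 65 members above background in both, 11 were at least 2-fold apart, where 1.73% of all such probes were. The members read higher in splenocyte 2 than in splenocyte 1 for 49 of 65, against 51.5% of all such probes. The median size of the gap was 0.50 on the log2 scale, against 0.15 for all probes above background in both. The 4 bright probes at the low-coordinate end had wide gaps, each higher in splenocyte 2. Splenocyte 1 minus splenocyte 2 was -1.04 for IGHV5-17, -0.997 for IGHV5S24, -1.41 for BC004786 and -1.54 for M19902. IGHV1S49 (A_52_P443776) ran the other way, with 1127 in splenocyte 1 and 233 in splenocyte 2 as processed signals and 1.21 on the log2 scale after scaling. Even so, the lines stood outside the span of the splenocyte samples for all 65 tested members. For the 45 that were dark in both lines this followed from how they entered the test. The share of all probes without overlap was not counted, but 64.9% of all tested probes were called in either direction.

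The window ends at named probes on both sides. Just inside the lower border lay the Adam6b probe, described above. Just outside it, AY172399 (A_52_P377838) had processed signals of 1.72 and 2.29 in the lines, against 1474 and 742 in the splenocytes. A probe of AB056117 (A_52_P528041), the mRNA of an antibody to erbB-2, is annotated with coordinates that begin at 113877315, outside, and end at 114149974, inside. It had processed signals of 88436 and 157253 in lines 1 and 2, against 2831 and 2622 in the splenocytes. Just inside the upper border the Zfp386 probe was dim. Just outside it another Zfp386 probe (A_52_P282091) had 58.0 and 57.5 in the lines, against 21.7 and 13.4 in the splenocytes. The probes of this gene farther out did not share a direction. The log2 difference was -1.92 for A_51_P152211, -1.96 for A_51_P152203 and 2.80 for A_52_P521937.

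The constant regions lie on the low-coordinate side, beyond the D and J segments. There, 19 probes name an immunoglobulin, of which 14 were lower in the lines and 5 did not pass the test. Over all tested probes, 32.5% were called lower. The 14 include the AY172399 probe, described as a variable region mRNA, and the AY895789 probe, which names no constant region. Some of the 14 were dark in both lines, so they entered the test only through the splenocytes and had to differ. The IgM constant region did not pass the test at any probe described as IgM or Igh-6 there. The IGHM probe (A_52_P571419) had processed signals of 231951 and 345310 in lines 1 and 2, against 268409 and 268619 in splenocytes 1 and 2, a log2 difference of -0.63 after scaling (SE 0.40, limma adjusted p = 0.229). Another probe described as the IgM heavy chain (A_52_P156852) had processed signals of only 36.2 and 41.9 in the lines, against 37.0 and 14.8 in the splenocytes (limma adjusted p = 0.885). The probes named Igh-6 differed in sign. The log2 difference was -0.60 for A_52_P358360 (limma adjusted p = 0.212) and 0.43 for A_51_P485421 (limma adjusted p = 0.244). Not passing the test does not show that the groups were equal. The IGHG2C probe (A_51_P311235) was not well above background in either line, with 61088 and 40583 in the splenocytes, and was at least 8524-fold lower (limma adjusted p = 0.000106). A set of 3 probes of the cDNA BC004786 lies there too, and all 3 were lower in the lines, with limma adjusted p-values between 0.000255 and 0.000507, although the variable region probe of the same cDNA was higher.

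At the kappa light chain locus on chromosome 6, most probes were lower too. Of 51 tested probes that name an immunoglobulin there, 49 were lower and 2 higher, against 32.5% and 32.4% of all tested probes. Some of the 49 were dark in both lines, so they entered the test only through the splenocytes and had to differ. The IGKV8-16 probe (A_52_P400905) had processed signals of 16371 and 26474 in lines 1 and 2, against 971 and 544 in the splenocytes, a log2 difference of 4.13 (SE 0.22, limma adjusted p = 0.000433). The other was Igk-V38 (A_51_P407657), with 15043 and 23321 in the lines, against 2873 and 2370 in the splenocytes (limma adjusted p = 0.00552).

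Genes that build, alter and regulate the heavy chain did not share one direction. Of 11 tested genes of V(D)J recombination and end joining, 4 rose and 2 fell in the lines. Lig4, the ligase of end joining, was higher by 2.21 (SE 0.15, limma adjusted p = 0.000742), and Xrcc6, which encodes Ku70, by 1.14 (SE 0.16, adjusted p = 0.00402). Atm, a kinase that responds to DNA breaks, fell by 0.85 (SE 0.16, adjusted p = 0.0109), and Prkdc, the catalytic subunit of DNA-PK, fell by 0.49 (SE 0.14, adjusted p = 0.0363). Neither decrease passed with arrays centred on the median (adjusted p = 0.0776 for Atm and 0.696 for Prkdc) or without splenocyte 1 (0.0700 and 0.176). The call of Prkdc was also lost without line 1, line 2 or splenocyte 2 (adjusted p = 0.0813, 0.0595 and 0.150). The recombinase genes themselves were hardly read: the Rag2 probe was below background on all 4 arrays, and the Rag1 probe used, 1 of 3 on the array, was above it in splenocyte 2 alone, with a signal of 27.3.

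Of the 11 tested genes of somatic hypermutation and class switching, 7 rose and the other 4 did not pass the test. The largest rises were those of the exonuclease Exo1, by 3.19 (SE 0.24, limma adjusted p = 0.00087), and of the uracil glycosylase Ung, by 2.37 (SE 0.21, adjusted p = 0.00129).

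Among 11 tested partners of the heavy chain in the B cell receptor, 2 rose and 2 fell. Cr2, the complement receptor of the coreceptor, was 735-fold lower (limma adjusted p = 9.47e-05). Igll1, a surrogate light chain gene, was higher by 1.91 (SE 0.39, adjusted p = 0.0128) at signals of 92.8 and 225 in the lines, against 37.1 and 15.0 in the splenocytes. Bcap31, an endoplasmic reticulum protein, was higher by 0.64 (SE 0.15, adjusted p = 0.0201). Without splenocyte 2 neither rise passed (adjusted p = 0.0529 for Igll1 and 0.105 for Bcap31), and that of Bcap31 was lost without line 1 or splenocyte 1 too (adjusted p = 0.0535 and 0.101). With normexp the rise of Igll1 was 0.69 (adjusted p = 0.110).

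Of 21 tested regulators of the locus, 6 rose and 9 fell, against 8 and 6 when arrays were centred on the median and 3 and 5 without splenocyte 2. Myb, a factor of early haematopoietic cells, was higher by 3.84 (SE 0.22, limma adjusted p = 0.000494) and the cohesin subunit Smc3 by 1.39 (SE 0.17, adjusted p = 0.0029). Irf8 fell by 3.41 (SE 0.20, adjusted p = 0.000522) and Ets1 fell by 2.61 (SE 0.23, adjusted p = 0.00121), both factors of B cell development. Of all tested probes, 32.4% rose and 32.5% fell, as given above.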

How the data were processed

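Total RNA was hybridised to 1-colour mouse arrays, 1 array per sample, and the scanner software was Agilent Feature Extraction (9.5 in the submitters' processing notes, 9.5.1.1 in the files' own headers). The deposited processed signal is an intensity, corrected for background and spatial trend by that software, with surrogate values for dim spots, and the spot mean and local background median are deposited as intensity too. The authors' deposited flags (other columns, 0 or 1) record, for each spot, signal above background, saturation and outliers. The values of the deposited series matrix equal this intensity times 1 factor per array.

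Here log2 processed signals were centred on each array's 75th percentile. Spots flagged on any array for a non-uniform feature or background, or as feature population outliers, were left out, which removed 259 probes and no member. The plan's wording left unclear whether background population outliers also counted; they were kept, touch 6 members, and were dropped in an alternative. Probes well above background on at least 2 arrays were tested with limma 3.58.1 (lmFit and eBayes, 2.41 prior degrees of freedom, two-sided) in R 4.3.3 with the data.table package at 1.17.8, adjusted by Benjamini-Hochberg over 27312 probes; 2 arrays against 2 limit the precision. The fit was tested on simulated data. "At least N-fold" counts a dim array at its lowest signal well above background, or at the probe's own if higher. The limma p given beside it is from the unbounded signals. Log2 differences are lines minus splenocytes.

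The members and gene lists were chosen with earlier results of these data known. The rule named members 4-fold higher in either line, the 3 brightest of each line and 6 of the splenocytes, the 6 largest called changes each way, the 5 largest gaps between lines, and 2 list genes each way; other probes were named after their values were seen. RefSeq (GRCm38.p6) gave current names for 13 members. Each list gene was represented by its tested probe of highest mean, or by its probe of highest mean where none was tested. Probes named Tcf3 were left out of the regulator list, since their transcript is now Tcf7l1. No probe sequence was used here. Some genes of the lists are counted but not reported by name here.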

Additional observations from a re-analysis of the deposited data

How the results depend on the processing

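The 59 lower and 6 higher members became 55 to 59 and 5 or 6 under the alternatives that changed the background correction, scaling, filter, flags or variance model, used the deposited matrix, or left out an array. Leaving out one array in turn gave 58 to 59 lower members, 5 to 6 higher ones and a median log2 difference between -9.31 and -9.004. The counts of 4-fold changes per line moved by no more than 1.5 times. Exceptions among the main values were the median log2 difference of tested members, -5.22 with normexp background correction and -8.76 with centring on the median, and the members 4-fold apart between the lines, 0 with normexp and 1 when dim signals were set at the lowest signal well above background (added after the data were seen). Normexp adds an offset of 50, which narrows differences of dim probes. The median of all tested probes was -0.29 with normexp, 0.14 with quantile normalization, 0.40 with median centring and -0.14 with the percentile over bright probes, against -0.01. Replicate numbers are shared by lines and splenocytes, and deviations of same-numbered arrays correlated at 0.012 over the tested probes. With 2 arrays per group, this value cannot show whether same-numbered samples were handled together. With a replicate block 59 members were called lower and 6 higher, with 61.2% of all probes called against 64.9%. Slide and scan could not be fitted, since all arrays share 1 slide and 1 scan. The other changes had no tested cause. Among named list genes, Prkdc (-0.45, adjusted p = 0.0749) lost its call with normexp, Prkdc and Bcap31 (adjusted p = 0.105 and 0.0625) with no filter, and Prkdc (adjusted p = 0.0775) with the replicate block. Signal over background limits the 45 members dark in both lines, for which no order between lines was read.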

Other observations

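Heavy chain variable probes with no position in the annotation were not counted above. There were 6, of which 5 were tested, 4 of them lower and 1 higher in the lines. Lower probes that were dark in both lines, such as L22886 below, entered the test only through the splenocytes. The higher one was X78107 (A_52_P275894), from a gamma 1 heavy chain mRNA, with processed signals of 24298 and 50494 in lines 1 and 2, against 594 and 369 in splenocytes 1 and 2. Both lines lay far above both splenocyte samples, by 5.52 on the log2 scale (SE 0.34, limma adjusted p = 0.00056). L22886 (A_51_P461902), from a rearranged heavy chain V region, ran the other way, with 1.82 and 8.29 in the lines, neither well above background, against 18673 and 13340 in the splenocytes. It was at least 2702-fold lower (limma adjusted p = 0.000459).

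The plasma cell marker Igj, the chain that joins IgM into pentamers, differed between the lines at 2048 in line 1 and 20550 in line 2, against 44888 and 30707 in the splenocytes. It did not pass the test between lines and splenocytes (limma adjusted p = 0.0526), and it was named after its values were seen.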
